A study of Mus musculus with 6 samples.

Results

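The genes described here encode the secreted and membrane-bound cues of axon guidance and the receptors that read them: the Eph receptors and ephrins, the semaphorins with their plexin and neuropilin receptors, the Slits and Robos, and the netrins with their receptors. They were matched by symbol, with the families chosen when earlier results of these data were known, and 60 of the 13069 genes in the authors' table matched. Of these, 31 encode ligands and 28 receptors. The remaining one, Unc50, matched only because its symbol begins like those of the Unc5 netrin receptors. It encodes a Golgi membrane protein and is counted among the 60 but in no family.

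The study sequenced messenger RNA from 2 mouse glioblastoma (GBM) neurosphere lines, with 3 libraries of genotype ATRX knockout (ATRX KO) and 3 of ATRX wild type (ATRX WT). ATRX is a chromatin remodeller that deposits a histone H3 variant at repeats. Both lines came from brain tumours that were started in newborn mice by transposon plasmids for a p53 hairpin and for NRAS, and the host strain of each line, C57BL/6 or FVB, is not given. The protocol describes an additional hairpin against ATRX where the sample labels say knockout, and which of these applies is not known. All libraries of 1 genotype carry 1 line code, C54B for ATRX KO and C39E for ATRX WT, and effects of genotype and of line cannot be told apart. The libraries are called biological replicates, but nothing says that they come from separate tumours, so the p-values rest on differences among libraries that may be technical only. The cultures grew in neural stem cell medium with FGF and EGF.

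Guidance cues steer growing axons and migrating cells by attraction or repulsion. Ephrins are anchored in the membrane and signal on contact, so that Eph receptors and ephrins set boundaries between cells. Semaphorins act through plexins, with neuropilins as co-receptors for most secreted members. Slits repel cells through Robo receptors, and netrins attract through Dcc and Neo1 or repel through the Unc5 receptors. In the brain these families act in development and remain in use by neural progenitors, vessels and glioma cells.

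Levels are given in RPKM, reads per kilobase of gene scaled to the size of the library, which allows comparison between genes. The authors' values include a small prior count, so a gene without reads has a value just above 0. Differences are ATRX KO minus ATRX WT in log2 RPKM, given with a standard error (SE), and a level written with ± is a mean and SD over 3 libraries. Rises and falls are named where the limma p-value, adjusted over the 12201 genes tested, was under 0.05. Genes had to reach log2 RPKM 0 in at least 3 of the 6 libraries to be tested. Coordinates and gene IDs are from GENCODE M21 (GRCm38).

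The libraries held 22177228 to 32477269 reads for ATRX KO and 34966108 to 38039847 for ATRX WT. Atrx transcript itself stood at 14.1, 16.6 and 17.1 RPKM in ATRX KO and at 22.3, 22.7 and 21.6 RPKM in ATRX WT (log2 difference -0.48, SE 0.068, adjusted p = 0.00013), so it was lower but present in the libraries labelled knockout. Markers of the labelled tissue differed widely. The 10 neural stem and glioma progenitor markers summed to 114 to 123 RPKM in the ATRX KO libraries, against 3180 to 3250 RPKM in ATRX WT. Most of the ATRX WT sum was Fabp7, at 2760 RPKM there and at 4 reads in ATRX KO. Of the 10, 9 fell, with Olig1 at 0 reads and Olig2 at 2 in ATRX KO and Sox2 at 19.8 against 80.4 RPKM, and 1, Sox9, rose from 31.0 to 62.6 RPKM. The 10 mesenchymal and fibroblast markers summed to 1680 to 1830 RPKM in the ATRX KO libraries, against 43.3 to 46.2 RPKM in ATRX WT. Most of that ATRX WT sum was Prrx1, at 37.7 RPKM. All 8 tested rose. Of those not tested, Thy1 was lower in ATRX KO, at 0.656 against 1.12 RPKM, and Col1a2 was higher, at 0.635 against 0.0555 RPKM. Of 10 neuronal markers 9 were in the table and summed to 7.95 to 8.61 against 339 to 350 RPKM, with Dcx at 0 reads in ATRX KO. Astrocyte markers (7 of 10) summed to 266 to 285 against 579 to 583 RPKM, and oligodendrocyte markers (7 of 10) to 43.3 to 46.8 against 154 to 158 RPKM. Of the 7 astrocyte markers 6 fell and 1, Gja1, rose from 15.4 to 144 RPKM. Of the 5 oligodendrocyte markers tested 3 fell and 2 rose, Pdgfra from 3.41 to 31.5 RPKM and Cspg4 from 2.52 to 10.5 RPKM. Macrophage markers (3 of 10, without Ptprc, Aif1 and Csf1r) summed to 34.0 to 39.7 against 6.09 to 6.80 RPKM, and pericyte markers (3 of 5) to 40.4 to 43.6 against 21.3 to 21.5 RPKM. The pericyte sums hold opposite changes. Rgs5 fell from 19.2 to 0.0753 RPKM, while Pdgfrb rose from 0.137 to 38.4 RPKM and Notch3 from 2.04 to 3.05 RPKM. Of 10 endothelial markers 4 were in the table, without Pecam1, Tek, Cldn5, Erg, Tie1 and Vwf, and summed to 14.6 to 16.6 against 2.15 to 2.67 RPKM. Among them Cdh5 and Emcn rose, Esam fell from 1.84 to 0.0949 RPKM and Kdr was not tested and overlapped. These markers differ between the same 2 lines that every result below compares, and their part in those results was not tested. In bulk RNA, fewer cells of a type and less RNA per cell cannot be told apart.

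The guidance genes did not move one way. Of the 60, 45 were tested, 22 rose, 18 fell and 5 gave no call, which is 88.9% called where 89.5% of all tested genes were (43.6% higher and 45.9% lower). The share called is thus near that of the whole table. The sizes were larger. Of the 45, 32 were called with a log2 difference of at least 1 in either direction (71.1%), against 36.8% of all tested genes. A limma test against a log2 difference of 1 called 27 of them (60%), 17 higher and 10 lower, against 32.6% of all tested genes, 15.4% higher and 17.2% lower. The median size of the difference was 1.69 in these 45 genes and 0.68 over all tested genes, while the signed medians were 0.08 and -0.02. The sign of the former depended on the scaling. By reads in the table the median of the 45 was -0.12, with 22 risen and 23 fallen, and after quantile normalization it was 0.26, with 23 risen and 20 fallen. Their levels were lower than average, with a median log2 RPKM of 2.81 against 3.51. Among the 4177 tested genes whose level lay between log2 RPKM 1.54 and 3.78, the middle range of the guidance genes, 28.8% were called in that test and the median size was 0.64. The filter also lets in genes that reach its level in 1 line only. Of the 45, 5 had a mean log2 RPKM of at least 0 only in ATRX WT and 5 only in ATRX KO. All of these were called with a difference of at least 1. Over all 13069 genes the counts were 1286 and 689. The sizes without such genes were not computed.

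**Figure D1:**
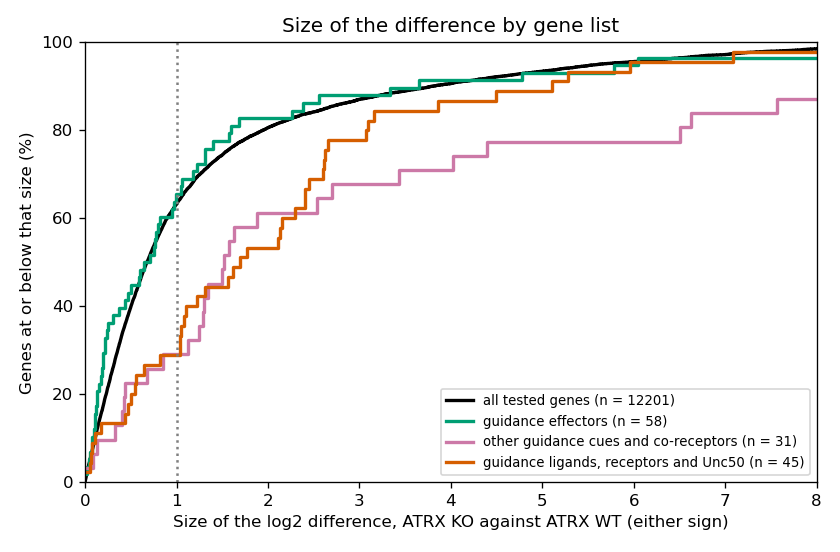
Cumulative share of genes (vertical axis, percent) by the size of the log2 difference between ATRX KO and ATRX WT in either direction (horizontal axis, cut at 8), for all 12201 tested genes, the 45 tested genes matched by symbol (25 ligands, 19 receptors and Unc50), and lists of other guidance cues and of cytoplasmic effectors. The curve of the 45 lies below that of all genes at a difference of 1 (dotted line), since 32 of 45 exceed it, while the effectors follow all genes.

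Of the ligands 25 were tested. Their median log2 difference was -0.18, with 10 risen, 13 fallen and 2 without a call. Of the receptors 19 were tested. Their median was 1.31, with 12 risen, 5 fallen and 2 without a call. The share called was 92% of the ligands and 89.5% of the receptors, beside 89.5% of all tested genes, of which 43.6% were higher and 45.9% lower. The difference between ligands and receptors was not tested. In 41 of the 45 tested genes the 3 ATRX KO values did not overlap the 3 ATRX WT values, a state shared by 90.5% of all tested genes. Of the 60, 34 guidance genes and Unc50 reached a mean log2 RPKM of 0 in both lines, 5 only in ATRX WT, 5 only in ATRX KO and 15 in neither. Of all 13069 genes in the table, 10312 reached it in both, 1286 only in ATRX WT, 689 only in ATRX KO and 782 in neither.

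**Figure D2:**
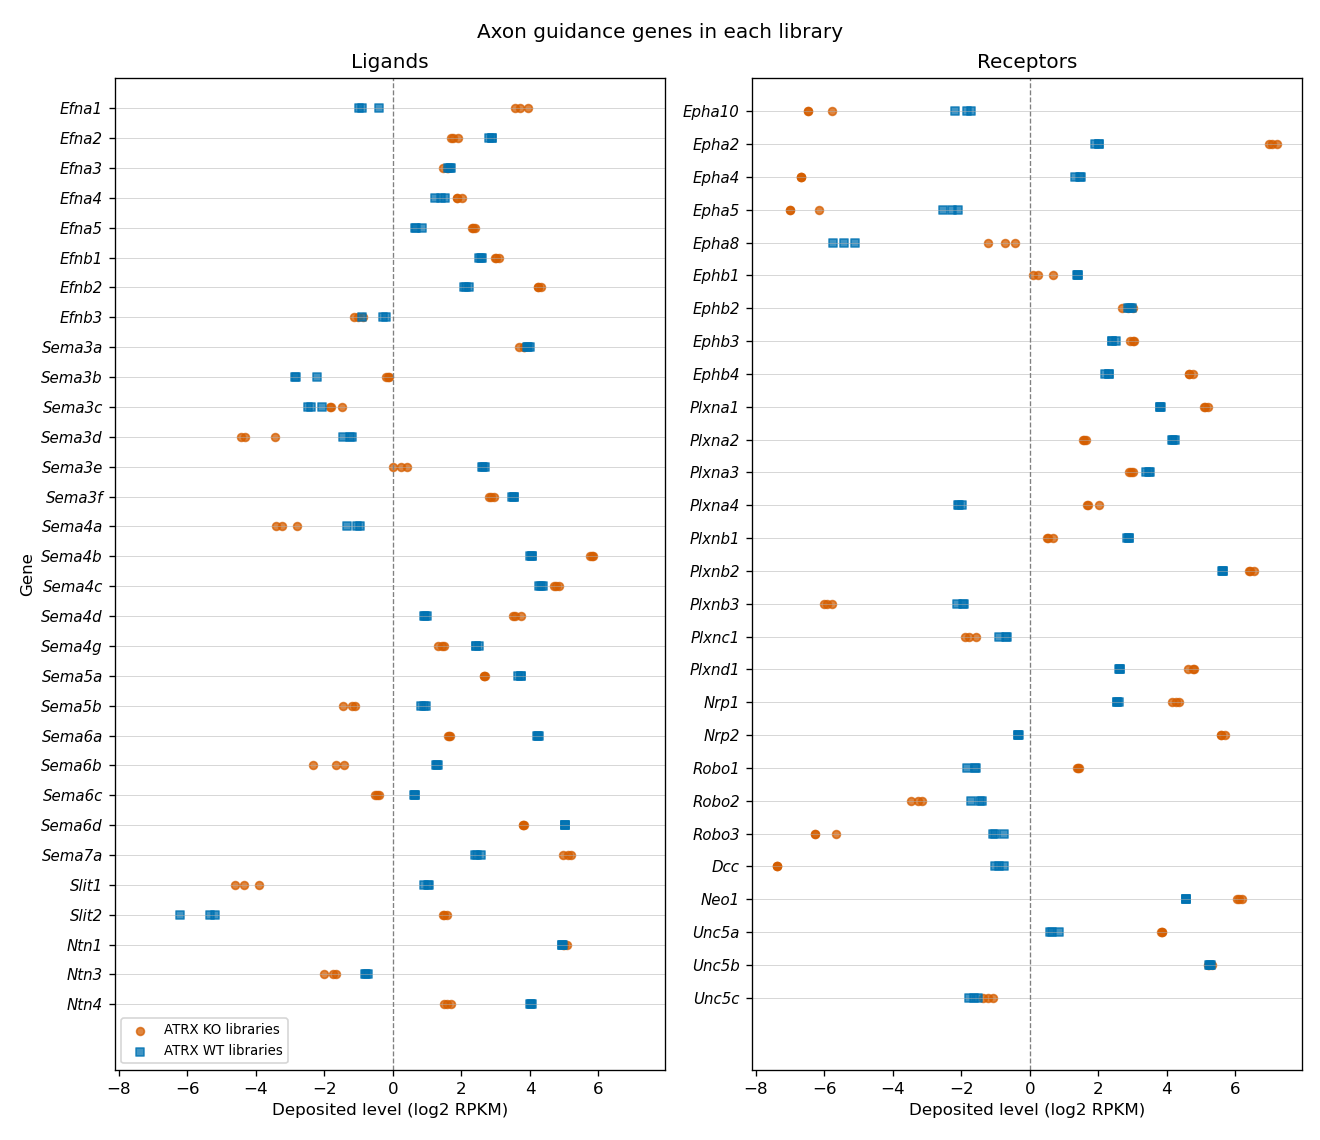
Deposited log2 RPKM (horizontal axis) of the 31 ligand genes (left) and 28 receptor genes (right) in each of the 3 ATRX KO libraries (circles) and 3 ATRX WT libraries (squares), with the level needed for testing as a dashed line. Libraries of 1 line cluster tightly, and in genes such as Nrp2, Epha2, Slit2, Epha4 and Dcc the lines stand far apart.

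Before the values by family, 4 promoters are shown, those of the tested genes with the 3 largest rises (Slit2, Nrp2 and Epha2) and the largest fall (Epha4), from the RefSeq promoter table (GRCm38.p6). Each is the 250 bases upstream of the start that RefSeq annotates, on the gene's own strand from 5′ to 3′, at chr4:141300971-141301220 (plus strand) for Epha2, chr1:62703067-62703316 (plus strand) for Nrp2, chr5:47982905-47983154 (plus strand) for Slit2 and chr1:77515089-77515338 (minus strand) for Epha4. Capitals mark matches on either strand. The TATA box was searched as TATAAA. The box of the factor NF-Y was searched as CCAAT. The GC box of Sp factors was searched as GGGCGG. The core bound by TEAD factors was searched as GGAATG, and overlapping matches were each counted.
Epha2: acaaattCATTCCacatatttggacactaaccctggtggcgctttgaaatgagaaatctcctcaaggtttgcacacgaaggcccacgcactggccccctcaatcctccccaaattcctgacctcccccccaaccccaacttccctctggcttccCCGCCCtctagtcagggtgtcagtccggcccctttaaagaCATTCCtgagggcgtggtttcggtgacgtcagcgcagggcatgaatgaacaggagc
Nrp2: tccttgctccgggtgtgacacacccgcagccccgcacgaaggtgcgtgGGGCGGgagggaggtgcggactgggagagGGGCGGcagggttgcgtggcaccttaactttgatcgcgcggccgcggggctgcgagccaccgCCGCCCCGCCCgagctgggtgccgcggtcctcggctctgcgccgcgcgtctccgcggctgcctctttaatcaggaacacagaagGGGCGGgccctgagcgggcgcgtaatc
Slit2: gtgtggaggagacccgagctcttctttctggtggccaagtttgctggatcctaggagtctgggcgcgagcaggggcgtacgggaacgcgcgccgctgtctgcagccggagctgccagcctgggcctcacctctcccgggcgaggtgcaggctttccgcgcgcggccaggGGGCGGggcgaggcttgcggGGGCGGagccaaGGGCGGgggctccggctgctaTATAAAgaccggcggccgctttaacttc
Epha4: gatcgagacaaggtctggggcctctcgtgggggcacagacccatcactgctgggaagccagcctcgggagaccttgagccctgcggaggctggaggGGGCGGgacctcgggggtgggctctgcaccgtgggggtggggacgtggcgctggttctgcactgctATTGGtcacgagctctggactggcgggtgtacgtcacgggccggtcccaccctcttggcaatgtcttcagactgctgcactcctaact
The first of these, higher in ATRX KO, holds 9 CpG sites, 1 GC box and 2 GGAATG matches, and the Epha4 promoter, lower in ATRX KO, 14 CpG sites, 1 GC box and 1 CCAAT match. Nrp2 has 32 CpG sites and 5 GC boxes that overlap in part, and Slit2 has 25 CpG sites, 3 GC boxes and the only TATAAA among the 4. Of the 60 genes 51 have an entry and 40 have exactly 1. Among those 40 promoters 75% hold GGGCGG, 27.5% CCAAT, 12.5% GGAATG and 5% TATAAA, against 32.7%, 33.8%, 12.6% and 12.4% of the 32817 promoters in the table, which include those of noncoding genes. GGGCGG was found in 80% of the 15 promoters of risen genes and in 75% of the 12 of fallen genes, and the median CpG count was 16 and 17.5. Over the 40 promoters the median CpG count was 17.5, against 6 over the 32817, so the 40 are richer in CpG than the whole. A match describes letters and is not a binding site.

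Among Eph receptors a single gene dominated ATRX KO. Epha2, a receptor tyrosine kinase of epithelial and mesenchymal cells that binds ephrin-A ligands (ENSMUSG00000006445.3, chromosome 4, 141301240 to 141329384), was at 149, 127 and 134 RPKM in the ATRX KO libraries and at 4.05, 4.02 and 3.77 RPKM in ATRX WT. Its groups lay far apart, and it rose 34.5-fold (log2 difference 5.11, SE 0.0585, adjusted p = 1.6e-11). The 30 well-measured genes within 5 Mb of Epha2, those averaging log2 RPKM 3 or more, had a median log2 difference of 1.17, so its neighbours were higher too but by less. Their part in the rise of Epha2 was not tested. Epha4, the receptor of neural progenitors and neurons that binds both ephrin classes (ENSMUSG00000026235.14, chromosome 1, 77367185 to 77515088), had 0 reads in every ATRX KO library. In ATRX WT it had 2.84, 2.78 and 2.49 RPKM from 2008 reads, which makes it at least 439-fold lower in ATRX KO, against a floor of 3 reads over the group. Epha4 lies below log2 RPKM 2 in both lines and was named after its values were seen.

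The other EphA receptors were scarce in both lines and were not tested. Epha5 had 1 read in the ATRX KO libraries and 180 in those of ATRX WT, a ratio of 118 (95% interval 20.9 to 4680), and Epha10 had 1 against 166, a ratio of 109 (19.3 to 4320). Epha8 went the other way, with 213 reads in the ATRX KO libraries and 6 in those of ATRX WT, at 0.426 to 0.742 and 0.0187 to 0.0291 RPKM. It lies on chromosome 4 as well, among 76 neighbours with a median log2 difference of 0.91. Summed over the 5 genes, EphA receptors stood at 137 ± 11.2 RPKM in ATRX KO and 7.15 ± 0.376 RPKM in ATRX WT. Epha2 made up 99.5% to 99.6% of that sum in ATRX KO, while in ATRX WT Epha2 held 54.6% to 56.1% and Epha4 37.1% to 38.6%.

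All 4 EphB receptors were tested, 2 rose, 1 fell and 1 gave no call, beside 43.6% higher and 45.9% lower over all tested genes. Ephb4, the receptor for ephrin-B2 that marks veins in vessel development (ENSMUSG00000029710.15, chromosome 5, 137350109 to 137378669), was at 27.0, 24.8 and 24.9 RPKM in ATRX KO and at 4.96, 4.57 and 4.94 RPKM in ATRX WT. It rose 5.3-fold (log2 difference 2.41, SE 0.0512, adjusted p = 4e-10). Ephb3, a receptor of intestinal and neural boundaries, was at 8.10, 7.61 and 8.21 RPKM against 5.27, 5.23 and 5.72 RPKM, with no overlap, and rose by a log2 difference of 0.56 (SE 0.0562, adjusted p = 1.2e-05), or by 0.36 when scaled by reads in the table. Ephb1 fell from 2.63 ± 0.00763 to 1.29 ± 0.285 RPKM, a log2 difference of -1.05 that became -0.53 after quantile normalization and -0.67 as log2(RPKM + 1). Ephb2 was at 8.10, 6.49 and 7.25 RPKM in ATRX KO and at 7.57, 7.36 and 7.91 RPKM in ATRX WT, values that overlap (log2 difference -0.07, SE 0.0785, adjusted p = 0.42). That gene gave a call in the negative direction without ATRX KO replicate 1 (adjusted p = 0.05, rounded) and when scaled by reads in the table (adjusted p = 0.0099), and the highest adjusted p over its alternatives was 0.98, the test against a log2 difference of 1 left aside. The 77 neighbours of Ephb2 on chromosome 4 had a median log2 difference of 0.87.

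Of the 7 tested ephrins 5 rose, 1 fell and 1 gave no call, so 85.7% were called beside 89.5% of all tested genes. Of the 6 tested Eph receptors 3 rose, 2 fell and 1 gave no call, so 83.3% were called. Efna1, the main partner of Epha2 in many cell types (ENSMUSG00000027954.9, chromosome 3, 89271733 to 89281142), was at 15.3, 11.8 and 13.1 RPKM in ATRX KO and at 0.508, 0.532 and 0.759 RPKM in ATRX WT, a 22.6-fold rise (log2 difference 4.50, SE 0.16, adjusted p = 9.1e-09). Both the ligand and the receptor of that pair were thus higher in each ATRX KO library than in any ATRX WT library. Efna5, a repellent of retinal axons, was at 4.98, 5.21 and 5.09 RPKM against 1.58, 1.80 and 1.60 RPKM and rose by 1.62 (SE 0.0726, adjusted p = 4.3e-08). Efna2 moved against them, at 3.75, 3.36 and 3.26 RPKM in ATRX KO and 7.45, 7.03 and 7.38 RPKM in ATRX WT (log2 difference -1.08, SE 0.0656, adjusted p = 3.6e-07).

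Efna4 rose by 0.54 (adjusted p = 0.00031), with 0.35 under scaling by reads in the table and 0.89 after quantile normalization. Efna3 stood at 2.94 ± 0.144 and 3.16 ± 0.0925 RPKM without a call (log2 difference -0.11, adjusted p = 0.15). Its sign depended on the scaling, at -0.30 (adjusted p = 0.0022) by reads in the table and 0.26 (adjusted p = 0.0034) after quantile normalization. An annotated gene on the opposite strand covers 14.1% of the exons of Efna3 and 10.5% of those of Efna4, and whether counting used strand is not stated. The leading ephrin-A was Efna1 in ATRX KO, with 42.9% to 50.2% of the summed RPKM of the 5 genes, and Efna2 in ATRX WT, with 47.1% to 47.8%.

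Of the transmembrane ephrins, Efnb2, the arterial ligand of Ephb4 (ENSMUSG00000001300.16, chromosome 8, 8617434 to 8661242), was at 19.0, 20.1 and 18.7 RPKM in ATRX KO and at 4.64, 4.24 and 4.35 RPKM in ATRX WT. It rose 4.37-fold (log2 difference 2.13, SE 0.0507, adjusted p = 7.5e-10), and its receptor Ephb4 rose in the same libraries. Efnb1 was at 8.50, 8.07 and 7.96 RPKM against 6.09, 5.97 and 5.67 RPKM and rose by 0.47 (SE 0.0503, adjusted p = 2e-05), or by 0.27 when scaled by reads in the table. Efnb3 was under the level for testing, at 0.454 to 0.543 and 0.532 to 0.873 RPKM, which overlap.

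**Figure D3:**
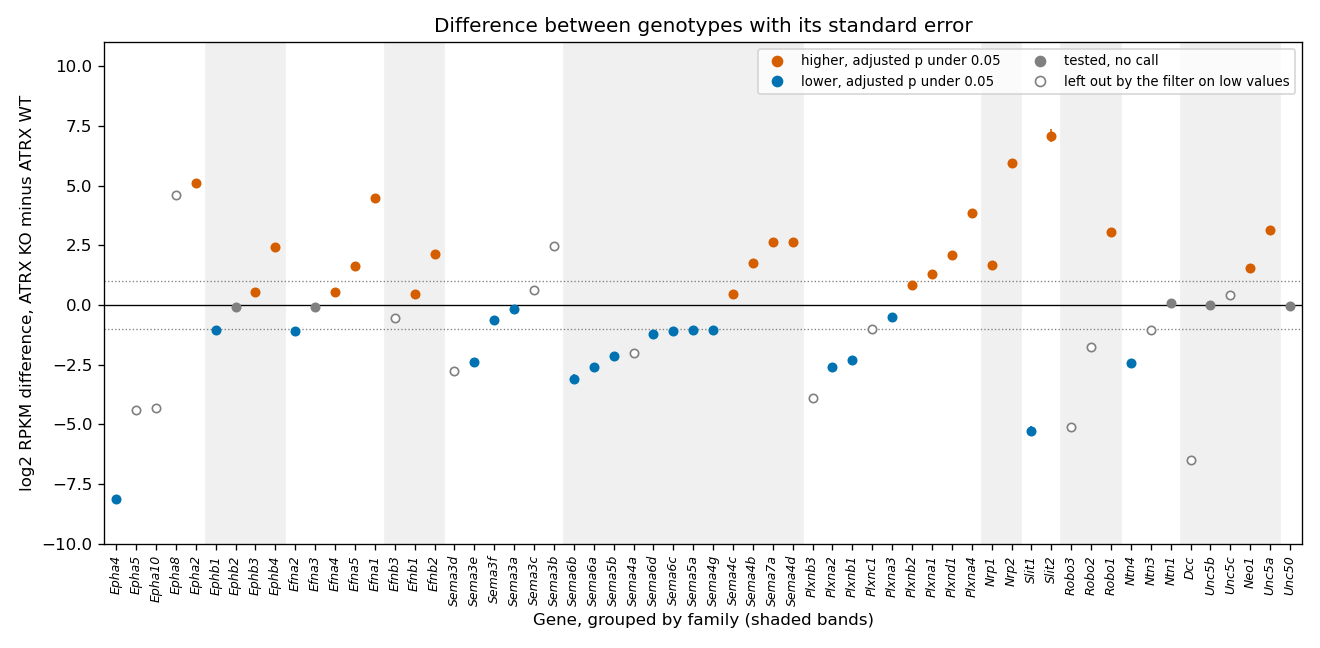
Log2 RPKM difference, ATRX KO minus ATRX WT, with its SE, for the 60 genes grouped by family in alternating shaded bands and sorted within each family. Filled points were tested and open points were left out for low values, dotted lines mark a difference of 1, and most families hold genes on both sides of 0. The points of Epha4 and Dcc, with 0 reads in ATRX KO, depend on the prior count.

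Among the 14 tested semaphorins 10 fell and 4 rose, and their median log2 difference was -1.04, beside 43.6% higher and 45.9% lower over all genes. The 3 tested members of class 3, which are secreted and act through neuropilins and plexins, all fell. Sema3e, which binds Plxnd1 directly and repels vessels and axons (ENSMUSG00000063531.7, chromosome 5, 14025276 to 14256689), was at 1.34, 1.19 and 0.993 RPKM in ATRX KO and at 6.14, 6.39 and 6.07 RPKM in ATRX WT. It fell by 2.41 on the log2 scale (SE 0.108, adjusted p = 4.1e-08). Sema3f, the classic ligand of Nrp2, was at 7.74, 6.98 and 7.35 RPKM against 11.2, 11.7 and 11.7 RPKM and fell by 0.65 (SE 0.0498, adjusted p = 1.9e-06). Sema3a, the ligand of Nrp1 and the most abundant of its class in both lines, differed little, at 12.8, 14.2 and 14.2 RPKM against 15.4, 16.1 and 15.1 RPKM (log2 difference -0.18, adjusted p = 0.0092). Scaled by reads in the table it differed by -0.38. The 3 untested members were all under 1 RPKM, with Sema3b higher in ATRX KO (0.901 ± 0.0324 against 0.165 ± 0.0448 RPKM), Sema3d lower (0.0626 against 0.409 RPKM) and Sema3c at 0.308 against 0.202 RPKM, also without overlap.

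Membrane-bound semaphorins changed in both directions. In class 4, whose members act mainly through plexin-B receptors, Sema4d was at 13.3, 11.4 and 11.9 RPKM in ATRX KO and at 1.89, 2.00 and 1.91 RPKM in ATRX WT. It rose 6.3-fold (log2 difference 2.65, SE 0.068, adjusted p = 1.2e-09). Sema4b rose from 16.5 ± 0.31 to 56.0 ± 1.58 RPKM (log2 difference 1.77) and became the most abundant semaphorin of ATRX KO. Sema4c rose by 0.44, or 0.24 scaled by reads in the table, while Sema4g fell by 1.03, from 5.47 ± 0.186 to 2.68 ± 0.168 RPKM. Sema4a was not tested, with 25 reads against 182. Sema7a, which is held by a lipid anchor and signals through Plxnc1 and integrins (ENSMUSG00000038264.8, chromosome 9, 57940112 to 57962865), was at 36.6, 31.4 and 34.5 RPKM against 5.90, 5.31 and 5.44 RPKM and rose 6.15-fold (log2 difference 2.62, SE 0.0638, adjusted p = 8.5e-10).

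All 6 members of classes 5 and 6 fell, beside 45.9% lower over all tested genes. These classes carry the transmembrane cues that act mainly through plexin-A receptors in neural tissue. Sema6a was at 3.18, 3.09 and 3.03 RPKM in ATRX KO and at 18.6, 19.2 and 19.0 RPKM in ATRX WT, a 6.11-fold lower level (log2 difference -2.61, SE 0.0426, adjusted p = 9e-11). Sema6d, the most abundant semaphorin of ATRX WT (ENSMUSG00000027200.17, chromosome 2, 124089969 to 124667770), was at 14.1, 14.0 and 13.9 RPKM against 32.7, 32.4 and 32.7 RPKM and fell by 1.22 (SE 0.0279, adjusted p = 5.9e-10). Sema5a stood at 6.34 ± 0.0735 RPKM in ATRX KO and at 13.1 ± 0.442 RPKM in ATRX WT (log2 difference -1.04). The fall of Sema5a stood beside neighbours on chromosome 15 with a median log2 difference of 0.82 over 20 genes. Sema5b differed by -2.15 and had 37 neighbours on chromosome 16 with a median of 1.11. Sema6b and Sema6c, both under 3 RPKM, differed by -3.10 and -1.10. On the log2(RPKM + 1) scale, which shrinks low genes, the differences of Sema5b, Sema6b and Sema6c were -1.01, -1.41 and -0.57, and after quantile normalization Sema5b and Sema6c differed by -1.26 and -0.31. In the limma test against a log2 difference of 1, Sema5a and Sema6c were not called (adjusted p = 0.5 and 0.4).

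Neuropilins, the co-receptors of class 3 semaphorins and of VEGF, rose together. Nrp2 (ENSMUSG00000025969.15, chromosome 1, 62703285 to 62818695) was at 52.3, 47.6 and 48.1 RPKM in ATRX KO and at 0.805, 0.784 and 0.790 RPKM in ATRX WT, 62.2-fold higher (log2 difference 5.96, SE 0.0526, adjusted p = 4.6e-12). The libraries of each line agree closely and the lines do not approach each other. Nrp1 was at 17.9, 20.3 and 19.1 RPKM against 5.89, 5.83 and 6.03 RPKM and rose by 1.69 (SE 0.0523, adjusted p = 3.7e-09). Their sum went from 6.71 ± 0.101 RPKM in ATRX WT to 68.5 ± 1.5 RPKM in ATRX KO. Nrp1 held 88.0% to 88.4% of the sum in ATRX WT, and Nrp2 70.1% to 74.5% in ATRX KO. The ligand Sema3f was lower in the line in which its receptor Nrp2 was higher.

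Plexins changed in both directions. Of 7 tested 4 rose and 3 fell, beside 43.6% higher and 45.9% lower over all genes. Plxnb2, a receptor of class 4 semaphorins, was the most abundant in both lines and rose from 49.5 ± 0.763 to 87.3 ± 4.7 RPKM (log2 difference 0.82). Plxnd1, the receptor of Sema3e (ENSMUSG00000030123.15, chromosome 6, 115954811 to 115995005), was at 27.6, 24.8 and 26.9 RPKM in ATRX KO and at 6.15, 6.17 and 6.08 RPKM in ATRX WT and rose by 2.11 (SE 0.0458, adjusted p = 4.5e-10), while Sema3e fell. Plxna1 rose by 1.31, from 14.1 ± 0.0981 to 35.1 ± 1.47 RPKM. Plxna4 rose by 3.85, or by 1.86 as log2(RPKM + 1), from 0.242 ± 0.0115 to 3.52 ± 0.481 RPKM.

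Of the plexins that fell, Plxna2, a receptor for class 6 semaphorins (ENSMUSG00000026640.12, chromosome 1, 194618218 to 194816869), was at 3.14, 2.93 and 2.97 RPKM against 18.0, 18.8 and 17.9 RPKM (log2 difference -2.60, SE 0.0476, adjusted p = 1.7e-10). Its ligand Sema6a fell by nearly the same amount in the same libraries. Plxnb1, a receptor of Sema4d, was at 1.60, 1.45 and 1.43 RPKM against 7.08, 7.51 and 7.40 RPKM and fell by 2.30 (SE 0.0675, adjusted p = 2.7e-09). Ligand and receptor of this pair moved in opposite directions, while the more abundant Plxnb2 rose like Sema4d. Plxna3 fell by 0.50. The 2 untested plexins were lower as well, Plxnb3 with 3 reads against 171, a ratio of 37.4 (95% interval 12.6 to 183), and Plxnc1, the receptor of Sema7a, at 0.269 to 0.334 against 0.542 to 0.634 RPKM. The exons of Plxna1 are covered to 10.7% by a gene on the other strand.

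The Slit ligands moved in opposite directions. Slit2 (ENSMUSG00000031558.15, chromosome 5, 47983138 to 48307733) was at 2.80, 2.99 and 2.76 RPKM in ATRX KO, from 1878 reads, and at 0.0134, 0.0273 and 0.0249 RPKM in ATRX WT, from 15 reads. Slit1 (ENSMUSG00000025020.11, chromosome 19, 41600257 to 41743665) was at 0.0496, 0.0409 and 0.0670 RPKM in ATRX KO, from 16 reads, and at 2.06, 1.89 and 2.05 RPKM in ATRX WT, from 1225 reads. Slit2 thus rose by 7.09 (SE 0.263, adjusted p = 1.2e-08) and Slit1 fell by 5.28 (SE 0.192, adjusted p = 1e-08). As log2(RPKM + 1) the differences were 1.91 and -1.51, because both genes stay under 3 RPKM. The sum of the pair differed far less, at 2.90 ± 0.11 RPKM in ATRX KO and 2.02 ± 0.0924 RPKM in ATRX WT, and 97.6% to 98.7% of it was Slit2 in ATRX KO and 98.6% to 99.4% Slit1 in ATRX WT. The Slits and Robos were all under log2 RPKM 2 and were named after their values were seen.

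Robo receptors were scarce. Robo1, the broad Slit receptor, was at 2.58, 2.73 and 2.68 RPKM in ATRX KO and at 0.283, 0.330 and 0.338 RPKM in ATRX WT and rose by 3.08 (SE 0.105, adjusted p = 6.7e-09), or by 1.48 as log2(RPKM + 1). The 2 well-measured genes within 5 Mb of it on chromosome 16 had a median log2 difference of 0.96. Robo2 and Robo3 were not tested and were lower in ATRX KO. Robo2 had 58 reads against 324, and Robo3, which in commissural neurons opposes Slit repulsion, had 1 read against 280, a ratio of 183 (95% interval 32.7 to 7270). Robo1 made up 95.6% to 95.9% of the summed Robo RPKM in ATRX KO, whereas in ATRX WT Robo3 led with a mean of 43.8%.

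Netrin ligands are few in the table, and the most abundant of them gave no call. Ntn1, the founding netrin of the neural midline, was at 34.1, 31.3 and 32.0 RPKM in ATRX KO and at 30.3, 30.6 and 31.4 RPKM in ATRX WT, values that overlap (log2 difference 0.08, SE 0.0371, adjusted p = 0.08). Its sign depended on the scaling, with -0.12 (adjusted p = 0.012) by reads in the table and -0.03 after quantile normalization. The call was gained at 0.10 without ATRX KO replicate 2 (adjusted p = 0.034) and at 0.08 in limma-voom (adjusted p = 0.045), in a range of 0.012 to 0.39 over alternatives other than the test against a log2 difference of 1. Ntn4, a netrin of basement membranes (ENSMUSG00000020019.4, chromosome 10, 93640681 to 93747207), was at 2.99, 2.80 and 3.26 RPKM against 16.3, 16.1 and 16.8 RPKM and fell 5.45-fold (log2 difference -2.45, SE 0.0618, adjusted p = 1.1e-09). Ntn3 was not tested, at 0.249 to 0.317 against 0.573 to 0.600 RPKM.

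Of the netrin receptors, Neo1, which also binds the repulsive guidance molecules (ENSMUSG00000032340.8, chromosome 9, 58874687 to 59036441), was at 73.7, 66.4 and 69.5 RPKM in ATRX KO and at 23.5, 23.8 and 23.4 RPKM in ATRX WT and rose 2.96-fold (log2 difference 1.57, SE 0.0388, adjusted p = 9.3e-10). Unc5a, a repulsive and death-linked receptor, was at 14.6, 14.2 and 14.6 RPKM against 1.57, 1.51 and 1.81 RPKM and rose 8.92-fold (log2 difference 3.16, SE 0.0728, adjusted p = 6.2e-10). Unc5b, the most abundant of them in ATRX WT, was at 39.7, 36.6 and 37.7 RPKM against 38.8, 37.4 and 38.6 RPKM, which overlap (log2 difference -0.01, SE 0.0355, adjusted p = 0.78). By reads in the table and after quantile normalization it was lower, by -0.21 (adjusted p = 0.00043) and -0.14 (adjusted p = 0.003). Dcc, the receptor through which netrin attracts axons, had 0 reads in the ATRX KO libraries and 654 in those of ATRX WT, at 0.495 to 0.597 RPKM, at least 143-fold lower. It was under the level for testing, like Unc5c, which stood at 0.429 RPKM in ATRX KO and 0.323 RPKM in ATRX WT without overlap. Unc50, which is no netrin receptor, stood at 32.0 ± 0.703 and 33.3 ± 0.995 RPKM without a call (adjusted p = 0.13, in a range of 6.2e-05 to 0.39 over alternatives other than the test against a log2 difference of 1).

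Summed by family, all 6 groups of receptors were higher in ATRX KO. A higher sum does not mean that each gene of the family was higher. Epha2 and Robo1 made up most of the EphA and Robo sums in ATRX KO, while Epha4, Robo2, Robo3 and Dcc were lower in that line. The 9 plexins summed to 164.9 ± 7.55 RPKM against 107.4 ± 1.47 RPKM, the 4 EphB receptors to 42.1 ± 2.44 against 20.5 ± 0.717 RPKM, the 3 Robos to 2.78 ± 0.0826 against 1.18 ± 0.0118 RPKM and the 5 netrin receptors to 122.8 ± 5.41 against 64.3 ± 0.56 RPKM. Class 3 semaphorins summed to 23.5 ± 0.387 against 34.0 ± 0.771 RPKM and the netrins to 35.8 ± 1.47 against 47.8 ± 0.865 RPKM, the 2 ligand families with the lower sum in ATRX KO. In the 12 families the sums of the 3 ATRX KO libraries did not overlap those of the 3 ATRX WT libraries. Among single tested genes 90.5% did not overlap either. With 3 against 3 an exact two-sided permutation test cannot give a p under 0.1, and no other test of the sums was made.

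**Figure D4:**
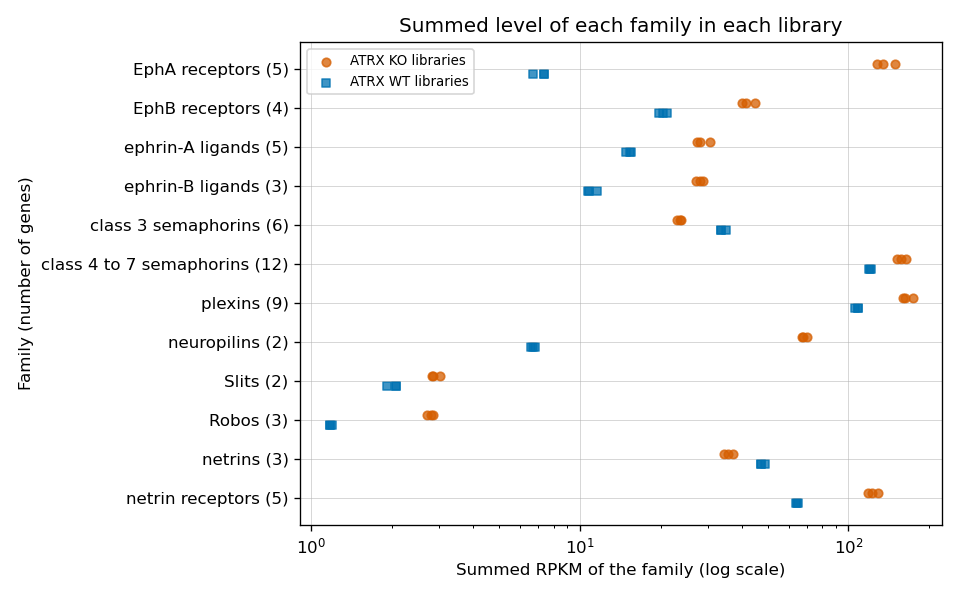
Summed RPKM (log scale) of the genes of each family in each ATRX KO library (circles) and ATRX WT library (squares), with the number of genes per family in parentheses. The 10 families other than class 3 semaphorins and netrins are higher in ATRX KO, with the widest gaps for EphA receptors, 137 against 7.15 RPKM, and neuropilins, 68.5 against 6.71 RPKM.

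The cytoplasmic genes that carry guidance signals to the cytoskeleton had differences of about the size found over all genes. Of a list of 60 effectors 58 were tested. Of the 58, 23 rose, 27 fell and 8 gave no call, beside 43.6% higher and 45.9% lower over all tested genes. The median size of the effectors was 0.68, the same to 2 decimals as over all genes. In the test against a log2 difference of 1, 31% of the 58 were called, beside 32.6% of all genes. Scaled by reads in the table, 15 rose and 35 fell, so their balance is relative to the scaling. The 4 largest falls were in the kinase Pak3 and in 3 of the 5 collapsin response mediators, which transmit Sema3a signals to microtubules. The other members of that family differed, with Dpysl2 down by a log2 difference of -1.31 and Dpysl3 risen from 28.9 to 44.0 RPKM (0.60). Dpysl5 had 1 read in the ATRX KO libraries and 14887 in those of ATRX WT, a ratio of 9760 (95% interval 1750 to 385000), Dpysl4 had 11 against 9644, Crmp1 went from 96.9 to 1.76 RPKM (log2 difference -5.78) and Pak3 from 4.55 to 0.0710 RPKM. The largest rises were Rnd1, which binds plexins (log2 difference 2.26), the actin regulator Vasp with 1.39, Rasa1 with 1.31 and Limk2 with 1.18.

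Other cues and co-receptors at the cell surface changed in both directions. Of a list of 40, 35 were in the table and 31 tested. Of the 31, 12 rose, 17 fell and 2 had no call, beside 43.6% higher and 45.9% lower over all tested genes. The median size in the 31 was 1.52, and 71% of them were called against a log2 difference of 1, beside 32.6% of all genes. Flrt2, a ligand of Unc5 receptors, went from 0.822 to 17.3 RPKM (log2 difference 4.40), Met, a receptor kinase that pairs with plexin-B receptors, from 0.726 to 11.8 RPKM (4.02), and Alcam and Sdc1 rose by 1.88 and 1.63. The 4 largest falls were in genes with 1 to 6 reads in ATRX KO. Dscam, a netrin co-receptor, had 1 read against 7719, a ratio of 5060 (95% interval 908 to 200000), Cntn4 1 against 5030, a ratio of 3300 (591 to 130000), Ntng1 1 against 3594, a ratio of 2360 (422 to 93100), and Cntn1 6 reads against 17380. Other adhesion molecules of the list fell as well, Nrcam by -6.51, Chl1 by -6.63 and Nfasc with 3 reads against 2260. Cntn2 and Dscaml1, not tested, had 1 read each in ATRX KO against 560 and 121 in ATRX WT. Ncam1 fell less, from 34.5 RPKM in ATRX WT to 14.1 RPKM in ATRX KO (log2 difference -1.30). Alcam, given above, rose, and L1cam, not tested, was higher in ATRX KO, at 0.903 against 0.516 RPKM. Both lists were chosen with earlier results of these data in view.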

How the data were processed

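RNA-seq libraries of 3 ATRX KO and 3 ATRX WT cultures were compared. The authors deposited log2 RPKM values, 1 column per library, for 13069 genes. Alignment and counting tools named in the submitters' processing notes are STAR 2.5.3a and HTSeq 0.11.2, beside edgeR 3.20.9 and the quality tools Trim Galore and FastQC. The builds given, mm9 and mm10, have no stated role. How low genes were removed is not given in the sources used here. The deposited log2 values lie on whole-read steps above a prior count that averages 2 reads, from which reads were recovered for 100% of genes (tolerance 0.0001 reads). Rebuilt values differed from the deposited ones by at most 6.0e-14.

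Values were tested with limma 3.58.1 (R 4.3.3, mean-variance trend, two-sided, Benjamini-Hochberg over 12201 tested genes, 868 left out), and with its treat test against a log2 difference of 1. The 15 guidance genes left out for low values are described by reads. Ratios with 1 to 3 reads in a group have exact 95% intervals, which, like floors, cover counting error only. On simulated data of 11867 genes the test recovered 192 of 192 changed genes with 16 false among 208 calls. The simulation changed few of its genes and none of those with few reads. It therefore does not show how the test behaves near 0 reads or where 89.5% of genes are called. The guidance genes given in full are, per family, up to 2 rises and 2 falls past the threshold with non-overlapping groups and a higher mean of at least log2 RPKM 2, and up to 4 each way in the effector and other-cue lists. The members, gene lists and markers were chosen with earlier results of these data known. The alternatives were other filters, priors, scalings, thresholds, left-out libraries, the replicate number as a block and limma-voom. The only tested guidance gene with 0 reads in a group, Epha4, left the medians at 0.08 and 1.69 when put at its bound.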

Additional observations from a re-analysis of the deposited data

How the results depend on the processing

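Of the 40 called guidance genes 37 also reached log2 RPKM 1 in at least 3 libraries, and no guidance gene tested lost its call or changed a called sign under any alternative run except the test against a log2 difference of 1, where 13 lost it and 17 higher and 10 lower remained. Without the filter on low values all 60 were tested, 26 rose and 29 fell, beside 5556 risen and 6138 fallen among all 13069 genes. The balance of the guidance genes thus turned, since with the filter 22 rose and 18 fell. Leaving out 1 library at a time gave 22 to 23 risen and 18 to 19 fallen guidance genes, 21 to 22 and 26 to 28 effectors, and 12 and 16 to 17 other cues. Among effectors 15 rose with library size as reads in the table, and 4 rose and 14 fell in the test against 1. Scaling by reads in the table shifted the median of all genes by -0.20, with 4388 risen and 6689 fallen. Of the 5 genes without a call, Unc50 kept its sign and the other 4 changed it under at least 1 setting. Efna3 gave 0.26 after quantile normalization, and Ntn1 gave -0.12 by reads in the table and -0.0339 after quantile normalization. Leaving out 1 library moved the log2 difference of Ephb2 between -0.15 and 0.0096 and the log2 difference of Unc5b between -0.0426 and 0.0153, the upper values without ATRX KO replicate 2. With the replicate number as a block, 22 guidance genes rose and 18 fell, 23 and 27 effectors, and 12 and 16 other cues. Same-numbered libraries did not deviate together (correlations -0.05, 0.05 and -0.04), so the numbers give no pairing. The planned edgeR and DESeq2 fits on recovered reads were not run. In their place limma-voom on those reads, chosen after seeing the data, gave 23 risen and 18 fallen guidance genes. With a prior of 5 and of 0.5 reads the log2 difference of Slit2 was 6.48 and 7.56 and the log2 difference of Slit1 was -4.86 and -5.55.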
